A study of Mus musculus with 6 samples.

Results

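The genes described here were 10 heat shock proteins and co-chaperones, namely Hspa1a, Hspa1b, Hspa8, Hsp90aa1, Hsp90ab1, Dnajb1, Hsph1, Bag3, Hspe1 and Hspd1. They were taken by symbol from the 32285 genes listed in the files, and all 10 were found. The counts are unique molecular identifiers (UMIs, each standing for 1 captured transcript) in 29412 cell barcodes from 6 single-cell libraries made with the 10x Genomics 3′ kits V3.0 and V3.1. The libraries came from 3 male C57BL/6J mice at postnatal day 89, each of which gave 1 library per kit. Whole brains were dissociated cold with a Dounce homogeniser in all 3 mice, and live CD45+/CD11b+ cells, the myeloid cells of the brain, were sorted. Mouse 2 was prepared with a cocktail of transcription and translation inhibitors (actinomycin D, triptolide and anisomycin), a group called DNC-INHIB. Mice 1 and 3 were prepared without it and form the group DNC-NONE. No mouse was digested with enzymes, so none of these libraries shows the response to warm digestion. DNC-INHIB was a single animal, and its difference from the other mice cannot be told apart from the inhibitors. The kits were compared to ask whether the chemistry version affects how the signature of ex vivo handling is detected.

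Heat shock proteins are chaperones that bind unfolded proteins and help them reach or regain their shape. HSP70 proteins (Hspa1a, Hspa1b, Hspa8) hold unfolded stretches, are driven by J-domain partners such as Dnajb1 and are reset by nucleotide exchange factors such as Hsph1 and Bag3. HSP90 proteins (Hsp90aa1, Hsp90ab1) finish the folding of kinases and steroid receptors, and the chaperonin Hspd1 with its lid Hspe1 folds proteins inside mitochondria. Heat and other stresses activate the transcription factor HSF1, which binds heat shock elements in the promoters of the inducible members, while Hspa8 and Hsp90ab1 are present at high levels in unstressed cells. Because tissue dissociation is itself a stress, the inducible members are often read as a sign of handling in brain cells.

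The promoters of the Hspa1a and Hspa1b pair are shown because these genes carry the largest differences below and are close copies of each other. Both are genes of 1 exon on the minus strand of chromosome 17, 9951 bases apart in the GRCm38 annotation. Their promoter sequences come from RefSeq on GRCm38.p6, at chr17:34972157-34972406 for Hspa1a and chr17:34959239-34959488 for Hspa1b, both minus strand, and hold the 250 bases before the start of the gene. Capitals mark a match to a heat shock element, written as GAANNTTC or TTCNNGAA and searched on both strands.
Hspa1a: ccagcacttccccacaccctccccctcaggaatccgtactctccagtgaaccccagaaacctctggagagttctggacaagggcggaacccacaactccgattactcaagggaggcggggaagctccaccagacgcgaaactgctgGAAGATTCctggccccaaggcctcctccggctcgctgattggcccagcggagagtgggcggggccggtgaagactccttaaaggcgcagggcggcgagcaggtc
Hspa1b: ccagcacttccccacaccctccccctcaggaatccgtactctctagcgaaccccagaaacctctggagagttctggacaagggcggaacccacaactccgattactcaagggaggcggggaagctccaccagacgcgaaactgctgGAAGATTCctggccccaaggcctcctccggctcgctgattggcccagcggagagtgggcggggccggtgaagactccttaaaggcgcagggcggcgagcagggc
The sequences differ at 3 of 250 bases, and the match lies 104 bases before the start in both. Of 32851 promoter windows of 300 bases in the RefSeq table, 15.1% hold at least 1 match and 1.96% hold at least 2. Windows were found for 7 of the 10 members, and 6 of these members hold a match, the exception being Dnajb1. The short stretches around the matches nearest the start of Hsph1 (chr5:149636351-149636380, minus strand) and Hspe1 (chr1:55088053-55088082, plus strand) are shown to set a lone upstream match beside a run of overlapping ones, and the Hsph1 window holds further matches after the start of the gene. The Hsph1 match is upstream of the RefSeq start only. In the GRCm38 annotation this minus-strand gene begins at base 149636376, and the match lies inside it.
Hsph1: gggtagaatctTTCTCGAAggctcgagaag
Hspe1: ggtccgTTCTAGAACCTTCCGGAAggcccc
Hspe1 has 3 overlapping matches between 89 and 79 bases before its start. Hspe1 and Hspd1 lie head to head on chromosome 1, and the other Hspd1 window reads the same 3 matches on the opposite strand. A match describes the letters only.

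Barcodes with 1000 to 4000 genes, no more than 12000 UMIs and a mitochondrial share of 15% or less were kept, which left 19725. Marker UMIs, none of them from a member gene, placed 18892 of these in microglia, 60 in border macrophages and 278 in neutrophils. The microglia held the marker P2ry12 in 99.8% of cells, and T and NK cell markers ranged from 0 UMIs (Cd3e) to 17 UMIs (Nkg7). The gate sets limits on both kinds of marker, so these values are partly built in. The neutrophil transcript S100a8 was found in 69.5% of microglia, and the B cell genes Ighm and Cd79b in 52.0% and 13.1%. Microglial cells had a median of 3396 to 3718 UMIs by library. The V3.0 library of mouse 3 stood apart, with 21.5% of its barcodes kept against 70.0% to 76.8% in the others. Its microglia had levels of the members close to those of the V3.1 library of the same mouse, and values without it are given where the adjusted p crossed 0.05. Any pair of libraries shared 1 to 14 barcode sequences. The main test between kits did not pair the libraries by mouse, so its p-values measure a spread that includes differences between mice. Nothing in the labels says that the libraries of a mouse came from separate sorts. With mouse as a block, the spread that remains between libraries may therefore be technical.

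Levels in microglia are given as UMIs of the gene in 1000000 microglial UMIs (CPM). The assay counts 1 tag at the 3′ end of each transcript, so levels of different genes were compared without dividing by length. The constitutive members were the most abundant. Hsp90ab1 had 821 CPM over all microglia and a UMI in 86.4% of cells, and Hspa8 had 769 CPM and 87.3% of cells. Their ranges over the 6 libraries overlapped (534 to 1053 and 602 to 974 CPM). Hspe1 followed at 214 CPM, Hsp90aa1 at 168 CPM and Hspd1 at 121 CPM, each overlapping its neighbour in this order. Hspd1, at 90.4 CPM or more in every library, did not overlap with Dnajb1, which reached at most 70.6 CPM. Dnajb1 at 56.2 CPM, Hsph1 at 38.0, Bag3 at 20.9, Hspa1b at 12.3 and Hspa1a at 10.2 CPM again overlapped from neighbour to neighbour. Hspa1a and Hspa1b, the inducible HSP70 genes, were found in 3.09% and 3.63% of microglia.

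The members also differed in how much they varied between mice. Hspa1a stood at 0.701 CPM (V3.0) and 1.26 CPM (V3.1) in mouse 1, at 20.4 and 17.6 CPM in mouse 2, and at 9.03 and 8.68 CPM in mouse 3. The libraries of a mouse lay close together and the mice lay apart, with a ratio of 29.1 between the highest and lowest library. Hspa1b, its neighbour, stood at 0.389 and 1.78 CPM in mouse 1, at 17.9 and 25.9 CPM in mouse 2, and at 12.5 and 12.8 CPM in mouse 3. Again mouse 1 was near 0 and mouse 2 highest, a ratio of 66.6 that rests on 5 UMIs in the V3.0 library of mouse 1. For the other members the same ratio was between 1.50 (Hspe1) and 2.75 (Hsph1).

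Hsph1, an HSP110 protein that resets HSP70, stood at 20.6 and 22.6 CPM in mouse 1, at 50.6 and 56.7 CPM in mouse 2, and at 34.2 and 36.7 CPM in mouse 3. Dnajb1, the J-domain partner of HSP70, stood at 37.8 and 42.8, 65.1 and 70.6, and 58.8 and 59.6 CPM in the same order. Bag3, which links HSP70 to autophagy, stood at 17.1 and 15.4, 25.1 and 24.7, and 20.9 and 20.6 CPM. In all 3 genes the libraries fell into the order mouse 2, mouse 3, mouse 1 without overlap. Hspa8, the constitutive HSP70, stood at 602 and 614, 974 and 884, and 697 and 741 CPM, in the same order. Hsp90aa1, the stress-inducible HSP90, stood at 129 and 127, 194 and 183, and 157 and 192 CPM, so that mice 2 and 3 overlapped. Hsp90ab1, the constitutive HSP90, stood at 534 and 679, 874 and 1053, and 738 and 926 CPM, also with overlap between mice 2 and 3. The mitochondrial pair differed least between mice, with both genes 1.22-fold higher in mouse 2 than in mouse 1 over both kits. Hspe1 stood at 179 and 207, 202 and 268, and 208 and 219 CPM, and Hspd1 at 90.4 and 128, 117 and 144, and 108 and 132 CPM. All 3 mice overlapped in Hspd1, and in Hspe1 mouse 2 overlapped with both other mice.

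**Figure D1:**
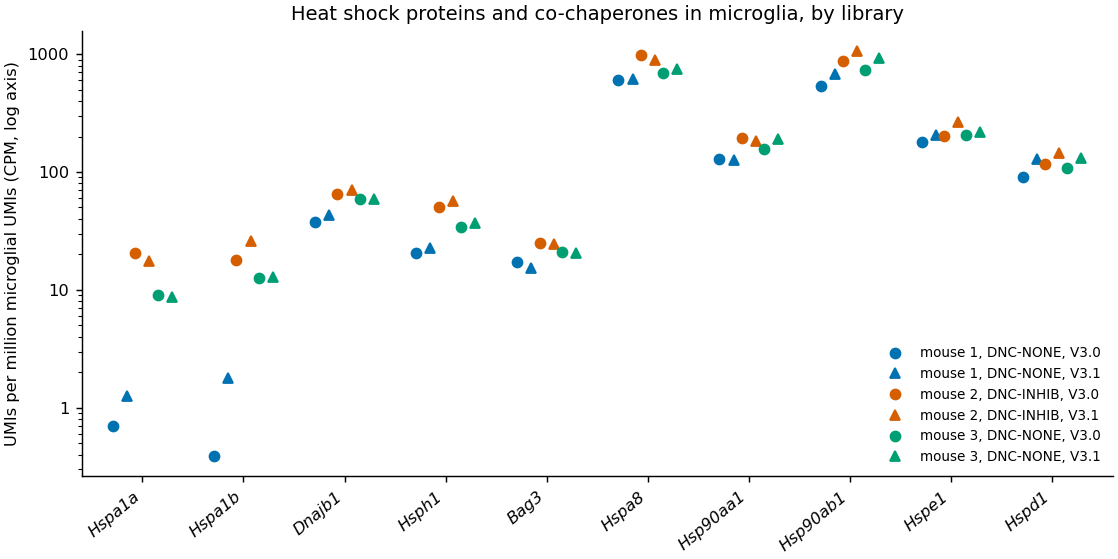
Level of each member in microglia (y axis, CPM on a log axis) in the 6 libraries, with colour for the mouse, circles for V3.0 and triangles for V3.1. Hspa1a and Hspa1b lie at or below 1.78 CPM in mouse 1 and at 8.68 CPM or more in mice 2 and 3, while the other members stay within a ratio of 2.75.

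Summed over both kits, the level followed the order mouse 2, mouse 3, mouse 1 in 10 of 10 members, an order that 13.4% of 12010 genes showed. Both DNC-INHIB libraries lay above all 4 DNC-NONE libraries for 6 members (Hspa1a, Hspa1b, Dnajb1, Hsph1, Bag3 and Hspa8), against 5.81% of all genes. Both libraries of mouse 1 lay below the other 4 for 8 members, all but Hspe1 and Hspd1, against 4.18% of all genes. The members move together and are not independent of each other, so these counts describe 3 animals.

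The genes whose levels followed Hspa1a most closely were found among 8468 genes with a mean of at least 10 CPM. Pearson's r was taken over the 6 libraries on log2 CPM after a constant was added to each CPM, which compresses low levels. These points are 3 mice read on 2 kits, and r is given as a description. Among the members r was 0.985 for Dnajb1, 0.980 for Hspa1b, 0.974 for Hsph1 and 0.959 for Bag3. It was 0.930 for Hsp90aa1, 0.929 for Hspa8 and 0.880 for Hsp90ab1, and only 0.626 for Hspe1 and 0.534 for Hspd1. The 5 closest genes outside the members were Dnaja4 (0.997), a J-domain protein, and Cep83 (0.984), Basp1 (0.982), Stim1 (0.974) and Tent5a (0.972). Their range was small beside that of Hspa1a, from 8.49 to 11.8 CPM in Dnaja4 and from 1197 to 1311 CPM in Basp1.

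The comparison of DNC-INHIB with DNC-NONE asks whether the inhibitors alter the cells in a cold preparation. Of the 10 members, Hspa1a, Hspa1b and Hsph1 passed the edgeR test, on 1 DNC-INHIB mouse, and DESeq2 called none of them (adjusted p = 1.00 for each). Hspa1a had 19.1 CPM in mouse 2 against 0.937 in mouse 1 and 8.74 in mouse 3, a log2 fold change of 2.03 ± 0.17 (SE, 1 against 2 mice, adjusted p = 1.6e-28, quasi-likelihood test of edgeR, Benjamini-Hochberg over all genes). Hspa1b had 21.6 CPM against 0.982 and 12.8, a log2 fold change of 1.70 ± 0.16 (adjusted p = 5.4e-24, same edgeR test). Hsph1 had 53.4 CPM against 21.5 and 36.3, a log2 fold change of 0.91 ± 0.11 (adjusted p = 6.3e-14, same edgeR test). A gene was called at an adjusted p under 0.05 and a log2 fold change beyond 0.58, and these 3 of 10 members passed, where 0.828% of 13169 genes were called and 0.372% were called higher.

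The other 7 members had log2 fold changes from 0.16 (Hspd1) to 0.49 (Hspa8), and were not called. All 10 members lay above 0, as did 48.4% of all genes. Counting the adjusted p alone, 7 members passed, adding Dnajb1 (0.46), Bag3 (0.45), Hspa8 (0.49) and Hsp90ab1 (0.37), where 1.37% of all genes did. Without the V3.0 library of mouse 3, Bag3 (edgeR adjusted p = 0.089) and Hsp90ab1 (edgeR adjusted p = 0.21) no longer passed, and with DESeq2 none of the 4 did (adjusted p = 0.26 for Hspa8 and 1.00 for the others). Hsp90aa1 (0.28), Hspe1 (0.20) and Hspd1 (0.16) did not pass it.

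The calls rest on a spread estimated from the 2 DNC-NONE mice and shared across genes, with the lone DNC-INHIB mouse assumed to vary like them. For Hspa1a the edgeR SE was 0.17, although these 2 mice differed by 3.22 on the log2 scale, and DESeq2 gave an SE of 2.04. The edgeR p-value therefore does not measure the spread between mice in this gene. The DNC-NONE mice themselves differed in the same genes. Hspa1a was 9.32-fold higher in mouse 3 than in mouse 1 (95% interval 5.91 to 15.4, counting error only), whereas mouse 2 was 2.19-fold higher than mouse 3 (1.83 to 2.61). On the log2 scale these differences were 3.22 and 1.13 for Hspa1a, 3.70 and 0.76 for Hspa1b, and 0.76 and 0.56 for Hsph1. In 9 of 10 members mouse 2 was nearer on the log2 scale to 1 of the DNC-NONE mice than these were to each other, the exception being Hspa8 (0.35 against 0.27). Without mouse 3 the Hspa1a log2 difference was 4.27 and without mouse 1 it was 1.13, neither with a test. DESeq2 called 0 of 10 members (1 had an unadjusted p under 0.05, and 0.0692% of all genes were called), with log2 fold changes of 1.99, 1.66 and 0.90 for Hspa1a, Hspa1b and Hsph1. Doubling the marker minimum of the microglial gate left the log2 fold changes at 2.09, 1.73 and 0.91 but ended all 3 calls (edgeR adjusted p of 0.12, 0.43 and 0.051). Within a kit, edgeR called 4 members among the V3.0 libraries and 3 among the V3.1 libraries, with Hspa1a at log2 fold changes of 3.03 and 1.68.

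**Figure D2:**
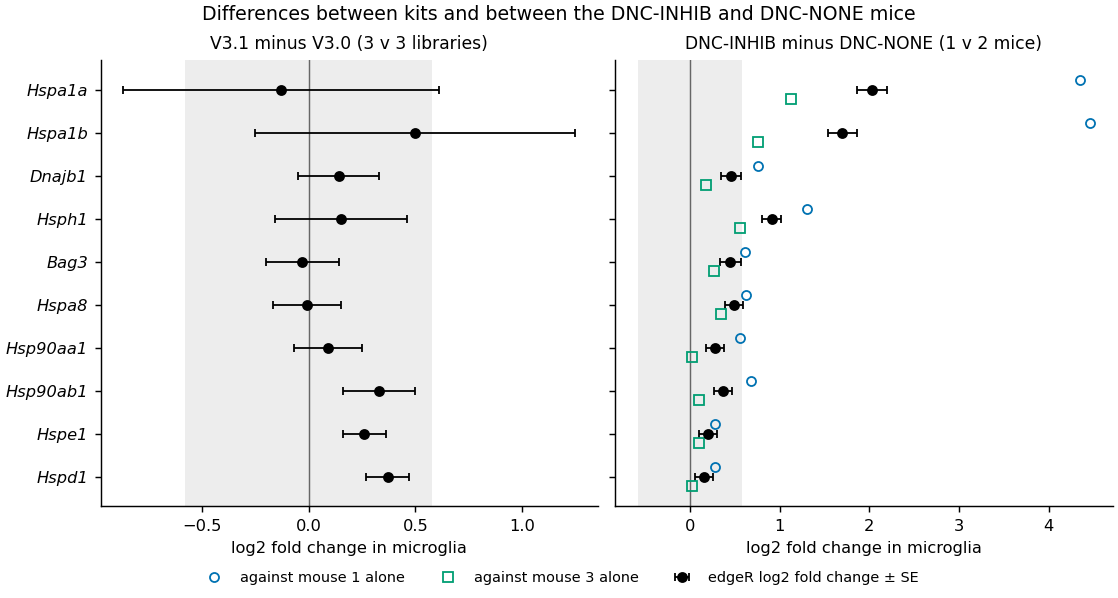
Log2 fold change of each member in microglia between kits (left, 3 libraries each) and between the DNC-INHIB mouse and the 2 DNC-NONE mice (right), where black points and bars are edgeR values with their SE and the grey band marks values within 0.58 of 0. Open symbols on the right compare mouse 2 with mouse 1 (circles) and mouse 3 (squares) alone, from 4.35 and 1.13 for Hspa1a to 0.28 and 0.02 for Hspd1.

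Most related genes, taken from lists of chaperones, were not called. Among 24 inducible or cytosolic partners tested, 2 were called higher in the DNC-INHIB mouse, the HSP110 gene Hspa4l (log2 fold change 0.72, 13.4 against 8.20 CPM) and the J-domain gene Dnaja1 (0.67, 484 against 301 CPM). Of 9 HSP90 co-chaperones, Fkbp5, also known as a glucocorticoid target, was called higher (0.67, 204 against 131 CPM). None was called among the 3 genes of HSF1 and its partners, 7 mitochondrial chaperones and proteases, 15 chaperones of the endoplasmic reticulum and 8 subunits of the TRiC chaperonin. Of 12 immediate early genes, Klf2 was called higher (0.84). With DESeq2 the adjusted p was 1.00 for Hspa4l, Dnaja1 and Fkbp5 and 0.016 for Klf2. The median log2 fold change was 0.45 over the members, 0.11 over the inducible partners, 0.24 over the HSP90 co-chaperones, 0.12 for HSF1 and its partners, 0.10 for the mitochondrial list, 0.16 for the endoplasmic reticulum list, 0.18 for TRiC, 0.10 for the immediate early genes and -0.01 over all genes tested.

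Between the kits no member was called, where 3.07% of 12010 genes were. Hspd1 stood at 90.4, 117 and 108 CPM with V3.0 and 128, 144 and 132 CPM with V3.1 in mice 1 to 3. The V3.1 value was the higher in each mouse, with a log2 fold change of 0.37 ± 0.10 (SE, 3 against 3 libraries) and an edgeR adjusted p of 0.021, short of the 0.58 required, and 13.7% of all genes passed the adjusted p alone. Without the V3.0 library of mouse 3 its edgeR adjusted p was 0.063. Hspe1, its partner, differed by 0.26 ± 0.10 (edgeR adjusted p = 0.098) and Hsp90ab1 by 0.33 ± 0.17 (edgeR adjusted p = 0.22). Hspa1a differed by -0.13 ± 0.74 (SE), an error larger than the difference, and by -0.11 ± 0.14 with mouse as a block. An unadjusted p under 0.05 was reached by 2 members with edgeR and by 2 with DESeq2, which also called none, against 29.4% of all genes with edgeR. With mouse as a block, the members called remained 0, while the edgeR adjusted p fell to 5.6e-05 for Hspd1, 6.1e-05 for Hsp90ab1, 0.0027 for Hspe1 and 0.018 for Hspa1b (log2 fold change 0.50). In all 4 of these genes V3.1 was the higher in each of the 3 mice, short of the 0.58 required.

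The share of cells with a UMI could not pass a test at 0.05 in 3 against 3 libraries, whatever its size. Hspd1 was found in 29.2% ± 1.99 of microglia with V3.0 and 34.6% ± 2.47 with V3.1 (SD, n = 3 libraries, two-sided exact permutation p = 0.10, the smallest this design allows, adjusted p = 1.0 over the 10 members). Hspe1 went from 47.4% ± 1.29 to 52.0% ± 5.40 (exact permutation p = 0.20, n = 3). Hspa1a was found in 3.03% ± 2.83 and 2.78% ± 2.46 (exact permutation p = 0.80, n = 3). Drawn down to 2000 UMIs per cell, the Hspd1 shares were 17.9% and 21.8% and those of Hspa1a 1.92% and 1.72%. No gene in the other chaperone lists was called between kits, nor did any member's kit difference depend on the inhibitors in the interaction test (adjusted p = 1.00 for each, edgeR with mouse as a block).

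Border macrophages, the macrophages of the meninges and vessels, were marked by Mrc1 (85.0% of cells) and Ms4a7 (85.0%) and held P2ry12 at 3.85% of its microglial level. Mrc1 and Ms4a7 are among the 8 gate markers, so their high share is partly built in. Pf4 was found in 73.3% of these cells and F13a1 in 48.3%, but Cbr2, Cd163, Folr2 and Lyve1 in 16.7% or less. Microglial markers were found in 1.67% (Sparc and Sall1) to 68.3% (Fcrls, 613 CPM against 1645 in microglia). Against microglia, 4 members were called higher in border macrophages (edgeR with mouse as a block, 3 mice), where 8.63% of 11513 genes were called and 3.97% called higher. Hspa1b had 58.8 CPM (14 UMIs) against 12.3, a log2 fold change of 2.13 ± 0.64 (SE, edgeR adjusted p = 0.013). Hsph1 had 109 CPM (26 UMIs) against 38.0, a log2 fold change of 1.38 ± 0.44 (edgeR adjusted p = 0.023). Both inducible genes thus stood above their microglial level on few UMIs. The log2 fold change was above 0 for 8 members and 31.6% of all genes.

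Hspa8 had 1217 CPM against 769 (log2 fold change 0.62 ± 0.20, edgeR adjusted p = 0.028). Hsp90ab1 had 1238 CPM against 821 (0.61 ± 0.20, edgeR adjusted p = 0.027). Both were higher in border macrophages in 3 of 3 mice. The other members had 29.4 CPM of Hspa1a (7 UMIs), 92.4 of Dnajb1, 16.8 of Bag3 (4 UMIs), 214 of Hsp90aa1, 206 of Hspe1 and 193 of Hspd1, and were not called. The 60 cells were uneven, with 16 from mouse 1, 36 from mouse 2 and 8 from mouse 3, and 23 of the 26 Hsph1 UMIs came from mouse 2. The 8 cells of mouse 3 held 0 UMIs of Hspa1a, Hspa1b, Hsph1 and Bag3, where 3 UMIs would have been 90.9 CPM. Without mouse 2 no member was called and the Hsph1 log2 fold change was 0.18. Without mouse 1 only Hsph1 was called. DESeq2 called 2 of the 4 (Hspa8 and Hsp90ab1), as did edgeR without the mouse block, and doubling the marker minimum left none.

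The median log2 fold change was 0.65 over the members and -0.47 over all genes tested, which is -0.56 when libraries are scaled by their size alone. With DESeq2 the median over all genes was 0.73, close to the DESeq2 values of Hspa8 (0.76) and Hsp90ab1 (0.77), so the place of these members relative to all genes depends on the fit. No gene of the inducible partners, HSP90 co-chaperones, HSF1, mitochondrial or TRiC lists was called between border macrophages and microglia. Their medians were -0.09, 0.17, -0.74, -0.14 and -0.28. Among the inducible partners 3 genes had a group at 0 UMIs, and with those groups set at 3 UMIs the median was 0.11. Of 15 endoplasmic reticulum chaperones, the disulfide isomerase Pdia3 was called lower (-0.94, 420 against 820 CPM), with a median of -0.55 over the list. Of 10 immediate early genes tested, 4 were called higher, among them Fos (16.8 CPM on 4 UMIs, against 0.849), Dusp1 (63.0 against 3.77 CPM) and Ier2 (92.4 against 11.8 CPM), and Junb was called lower (-1.30), with a list median of 1.58.

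Neutrophils carried little of most members. Of the 10 members, 7 were called lower than in microglia (edgeR with mouse as a block, 3 mice), where 57.0% of 11891 genes were called and 37.0% called lower, so lower calls were common in this comparison. Hspe1 had 6 UMIs in 278 cells, 3.56 CPM against 214, a ratio of 0.0166 (exact 95% interval 0.00609 to 0.0361). Its log2 fold change was -4.63 ± 0.34 (SE, edgeR adjusted p = 2.0e-40). Hsph1 and Bag3 had 1 UMI each, ratios of 0.0156 (0.000395 to 0.0869) and 0.0284 (0.000719 to 0.159). All 3 intervals include 0.00815, the ratio of the microglial marker P2ry12, whose UMIs the neutrophil gate itself limits. These levels could not be told apart from that ratio, and whether they are background was not tested.

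Hspd1, the partner of Hspe1, had 20.1 CPM against 121 (log2 fold change -1.30 ± 0.24, edgeR adjusted p = 3.8e-07). Hsp90aa1 had 39.1 CPM against 168 (-0.80 ± 0.19, edgeR adjusted p = 8.1e-05), and Hsp90ab1 had 215 CPM against 821 (-0.63 ± 0.12, edgeR adjusted p = 9.4e-07). Hspa1a had 1 UMI, a ratio of 0.0583 (0.00147 to 0.326), called lower at an edgeR adjusted p of 0.043 that did not hold with DESeq2 (adjusted p = 0.21) or in most other alternatives. Hspa8 (290 CPM), Dnajb1 (17.8) and Hspa1b (4.74) were not called. In neutrophils S100a8 and S100a9 took 39.4% of all UMIs. For this the fit scaled libraries by trimmed means, which put the median log2 fold change of all genes at -0.85 and that of the members at -1.05. With DESeq2 the median of all genes was 0.44. With library size alone it was -2.12, 10 of 10 members and 80.2% of all genes were called, and the share of calls that were higher fell from 35.0% to 12.1%.

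**Figure D3:**
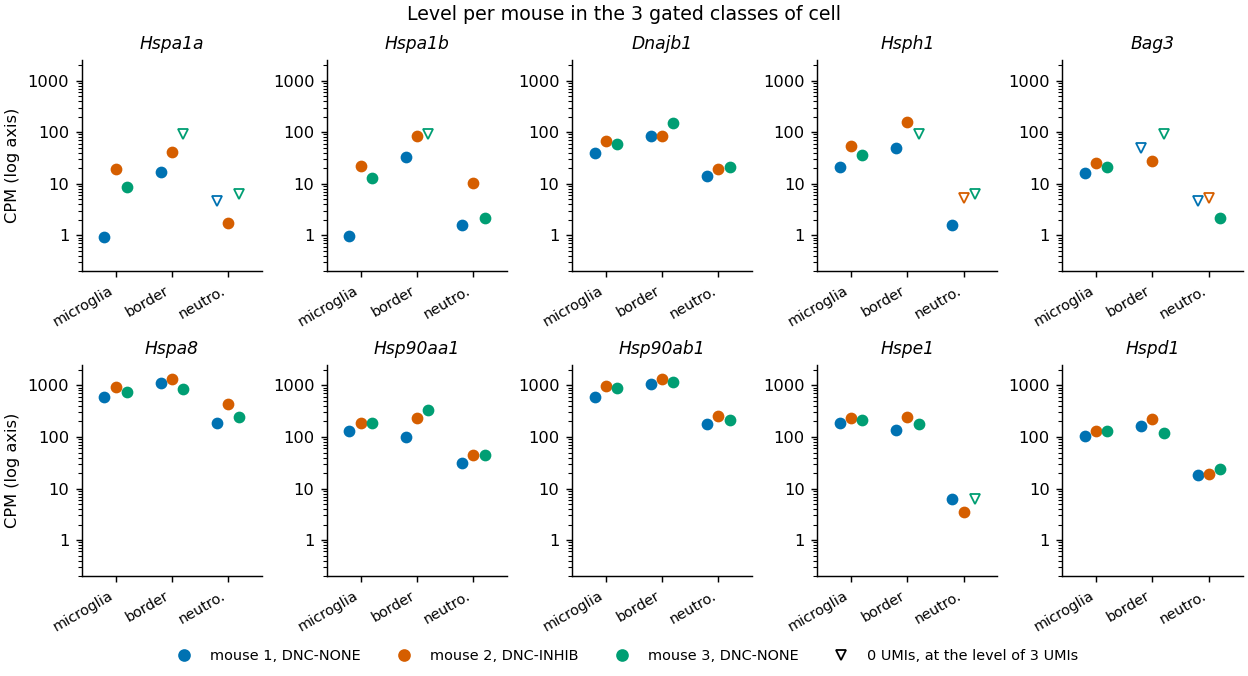
Level of each member (y axis, CPM within the class on a log axis) in microglia, border macrophages and neutrophils, 1 point per mouse, with open triangles for 0 UMIs drawn at the level 3 UMIs would give. Hspe1 lies at 191 to 232 CPM in microglia and at 6.18 CPM or less in neutrophils, while Hspa1a and Hspa1b differ between mice within microglia as well.

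The other chaperones of neutrophils were called lower in most lists. All 15 endoplasmic reticulum chaperones were called lower, with a median of -2.25, led by Pdia4 (-4.68), Sdf2l1 (-4.66) and Pdia6 (-3.09). So were 6 of 7 mitochondrial genes (median -2.62), among them Clpp, Trap1 and Dnaja3, and 7 of 8 TRiC subunits (median -0.83), among them Cct3, Tcp1 and Cct6a. Of 9 HSP90 co-chaperones, 5 were called lower, with Fkbp4 (-3.62), Ppid (-2.25) and Chordc1 (-1.12) the furthest, and Pdcl3 was called higher (1.16), with a median of -0.75. Of 23 inducible partners tested, 10 were called lower, among them Dnaja4 (0 UMIs), Bag5 and Hspbp1 (1 UMI each), and 2 were called higher, Hspa4l (1.95) and Bag6 (0.64), with a median of -0.29. Hsf1 (-2.15) and Hsf2 (0 UMIs against 30.4 CPM) were called lower and Hsbp1 (0.60), a binding partner of HSF1, was called higher. Of 10 immediate early genes, 6 were called higher, among them Fos, Dusp1 and Ier2, and Klf4 (0 UMIs) and Jun (-3.31) were called lower, with a median of 0.94.

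Within microglia, a UMI of Hspa1a was found in few cells, and at this depth a cell without one may still express the gene. Of 18892 microglia, 583 had a UMI of it, of which 500 had 1, 61 had 2 and 22 had 3 or more, with 7 the most. By mouse, 19 cells of mouse 1 (0.314%, exact 95% interval 0.189 to 0.489), 417 of mouse 2 (5.65%, 5.13 to 6.20) and 147 of mouse 3 (2.70%, 2.28 to 3.16) had a UMI. Neutrophils, at a median of 5676 UMIs against 3510 in microglia, had a UMI in 1 of 278 cells (0.360%, 0.00911 to 1.99). That cell came from mouse 2, and 0 of 108 neutrophils of mouse 1 had a UMI. S100a8 and S100a9 took 39.4% of the neutrophil UMIs, and whether the neutrophil share measures background was not tested. The share in microglia of mouse 1 could not be told apart from the neutrophil share. Those of mice 2 and 3 lay above the upper end of the neutrophil interval over all mice. They did not lie above the interval of the same mouse, which reached 5.85% in mouse 2 (1 of 93 neutrophils) and 4.68% in mouse 3 (0 of 77). Drawn down to 2000 UMIs in the 18152 microglia that had as many, with 740 shallower cells left out, the shares were 0.219%, 3.70% and 1.54%. Before drawing down, Hspa1a-positive cells were deeper in all 3 mice, at medians of 3867, 3672 and 3811 UMIs against 3572, 3463 and 3475. Among cells positive after drawing down, the original depth was a median of 3545 UMIs against 3554 in negative cells. The median mitochondrial share of the same cells was 1.29% against 1.22% over all mice. By mouse it was 1.44%, 1.37% and 1.04% in mice 1 to 3, against 1.21%, 1.34% and 1.13% in negative cells.

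Hspa1b was found with Hspa1a in 124 cells. Without drawing down, it was detected in 15.8%, 21.8% and 20.4% of Hspa1a-positive microglia of mice 1 to 3, against 0.265%, 5.30% and 3.32% of the others. The pair shares much sequence, with 49.1% of 91-base windows of the Hspa1a transcript also present in Hspa1b, but 0% of the windows in the last 400 bases, where 3′ reads fall. Because the copies could still exchange reads, Hspa1b was given no test here.

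The remaining 8 members were compared between Hspa1a-positive and Hspa1a-negative microglia, drawn down to 2000 UMIs and summed per mouse (edgeR, mouse as a block, 3 mice). Of them 2 were called, where 0.0919% of 10882 genes were. Hsph1 had 102 CPM in positive and 36.5 in negative cells, a log2 fold change of 1.11 ± 0.24 (SE, edgeR adjusted p = 0.0044). It was found in 18.8% against 8.90% of cells in mouse 2 and in 13.8% against 6.84% in mouse 3. Hsp90aa1 had 303 against 164 CPM, a log2 fold change of 0.66 ± 0.15 (edgeR adjusted p = 0.0081), and was found in 43.1% against 28.8% of cells in mouse 2 and 33.8% against 28.4% in mouse 3. Mouse 1 had only 13 positive cells after drawing down, with 0 UMIs of Hsph1 and 4 of Hsp90aa1, and adds little to either value.

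Hsp90ab1 passed the adjusted p (5.9e-04, edgeR) with a log2 fold change of 0.54 ± 0.11, short of 0.58. In mouse 3 it was found in 96.2% of positive and 77.2% of negative cells. The other members had log2 fold changes of 0.79 (Bag3), 0.55 (Dnajb1), 0.37 (Hspe1), 0.37 (Hspd1) and 0.29 (Hspa8), each at an edgeR adjusted p of 1.00. Log2 fold changes in the fit were above 0 for 8 of 8 members and 44.4% of all genes, though not in every mouse, as Dnajb1 had 0 UMIs in the positive cells of mouse 1 and a log2 fold change of -0.03 without mouse 2. Of the members, 7 had an unadjusted p under 0.05 against 3.64% of all genes. Bag3 was uneven by mouse, at 8.46% against 4.49% of cells in mouse 2 and 2.50% against 3.55% in mouse 3. Without mouse 2, and likewise without mouse 3, no member was called, at log2 fold changes of 0.79 and 1.03 for Hsph1 and 0.34 and 0.66 for Hsp90aa1. DESeq2 called none (2 had an unadjusted p under 0.05), and without the V3.0 library of mouse 3 only Hsph1 was called.

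**Figure D4:**
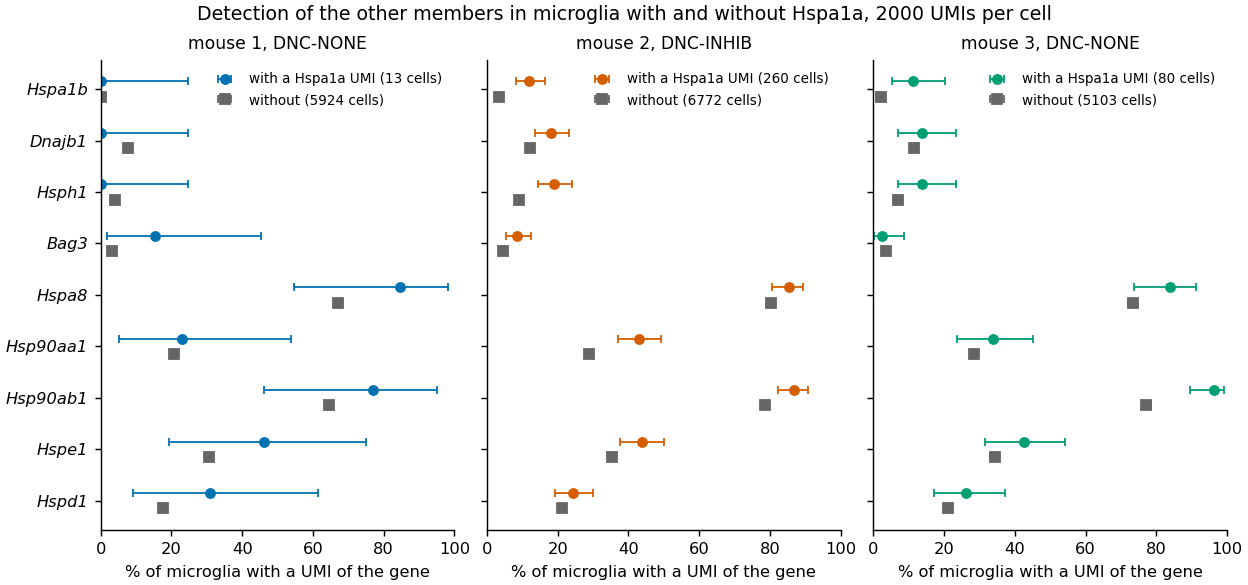
Share of microglia with a UMI of each other member (x axis, percent of cells drawn down to 2000 UMIs) among cells with (coloured circles) and without (grey squares) a UMI of Hspa1a, 1 panel per mouse, with exact 95% intervals that cover counting error. In mouse 2 Hsph1 is found in 18.8% against 8.90% and Hspa1b in 11.9% against 3.40% of cells, while mouse 1 has only 13 positive cells and wide intervals.

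Other chaperones were called along with Hspa1a in 2 cases, Dnaja1 (log2 fold change 0.76, 1 of 21 inducible partners tested) and Chordc1 (0.80, 1 of 9 HSP90 co-chaperones), and so was the immediate early gene Klf2 (1.03, 1 of 9). With DESeq2 the adjusted p was 1.00 for all 3. No gene of the HSF1, mitochondrial, endoplasmic reticulum or TRiC lists was called. The median was 0.54 over the members tested, 0.14 over the inducible partners, 0.16 over the HSP90 co-chaperones, 0.08 for HSF1, 0.05 for the mitochondrial, -0.01 for the endoplasmic reticulum and 0.10 for the TRiC list, 0.90 for the immediate early genes and -0.04 over all genes. Markers of other cells were measured beside these values. The 10 neutrophil markers summed to 538, 840 and 1419 CPM in Hspa1a-positive cells of mice 1 to 3 and to 889, 801 and 1287 CPM in negative cells. The 8 border macrophage markers summed to 0, 5.77 and 6.25 CPM against 4.05, 5.46 and 6.07 CPM, with at least 7 of 8 at 0 among the positive cells of each mouse. The 9 microglial markers were lower in positive cells of all 3 mice, at 12692, 14619 and 14231 CPM against 16185, 15569 and 16490 CPM. The part of these markers in the results was not tested.

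UMIs of several inducible members were found together in few cells, which counts detection at this depth and not expression. Counting Hspa1a, Hspa1b, Dnajb1, Hsph1 and Bag3 in microglia drawn down to 2000 UMIs, 0.724% of cells in mouse 1, 4.81% in mouse 2 and 2.24% in mouse 3 had at least 2 of the 5 genes. At least 3 were found in 2, 49 and 9 cells. The share of cells with at least 2 thus followed the order of the levels, and cells with no UMI of any of the 5 were the majority in each mouse, 5075 of 5937, 5053 of 7032 and 3976 of 5183.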

How the data were processed

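Sorted brain myeloid cells of 3 mice were profiled in 6 libraries. Per the labels, the authors made the deposited tables of UMI counts per gene and barcode with bcl2fastq and Cell Ranger 5.0.0 on GRCm38/mm10, and used Seurat. The counts were raw, and the barcodes had not been filtered for quality.

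Barcodes were kept by the limits the study states. Gates required microglia to hold at least 15 UMIs from 5 of 9 markers, border macrophages 3 UMIs from 2 of 8 and neutrophils 30 UMIs from 3 of 10. Cells of another class could hold microglial or neutrophil marker UMIs below these minimums of 15 and 30. Border macrophage, monocyte and T or NK cell markers of another class were held to at most 2 UMIs, but neutrophils had no monocyte limit. Stab1 was dropped from the border list, since 54.9% of microglia held it. The 131 barcodes with markers of several classes were left out as likely doublets, and no doublet caller was run. UMIs were summed per library (kits) or mouse (other comparisons) and tested with edgeR 4.0.16 (quasi-likelihood, trimmed-mean scaling, low-count filter, Benjamini-Hochberg over all genes) in R 4.3.3, after a test on simulated data. Calls needed an adjusted p under 0.05 and a log2 fold change beyond 0.58, the limits of the study. DESeq2 1.42.0, other gates and filters and left-out mice were alternatives. Shares have exact Clopper-Pearson intervals, and all intervals cover counting error only. Depth was 68353611 UMIs in microglia, 238212 in border macrophages and 1687443 in neutrophils. Libraries of a mouse come from the same animal and are paired by it, and their deviations from the kit means correlated at 0.27, 0.40 and 0.12 over 12010 genes.

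The members and lists were chosen with earlier results of these data known. All members are named, with up to 3 called genes in each direction from each list, and the 5 genes closest to Hspa1a. Promoters are from RefSeq (GRCm38.p6) and gene models from GENCODE.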

Additional observations from a re-analysis of the deposited data

Results flagged for a closer look

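Of 23 values checked for a library far from the others among the 4 DNC-NONE libraries, 1 was found, and chance alone puts about 1 in 20 such groups past this limit. The V3.0 library of mouse 3 kept 21.5% of its barcodes, against 75.9% to 76.8% in the other DNC-NONE libraries. Its gap to the nearest of the others was 0.984 of the whole range.

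Hspa1a was also present in the 9687 barcodes outside the cell filter, which no comparison used. It stood there at 5.80 CPM (60 UMIs), against 10.2 CPM in microglia. These barcodes held 0 UMIs of it in both libraries of mouse 1, 14.5 CPM (V3.0) and 3.65 CPM (V3.1) in mouse 2, and 8.46 and 3.12 CPM in mouse 3.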

How the results depend on the processing

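The direction of each member that was called remained the same under every alternative run, while several calls did not hold. In DNC-INHIB against DNC-NONE, 3 members were called, 0 with DESeq2, 0 with the marker minimum of the gates doubled (an alternative added after seeing the data), and 2 to 4 otherwise. Over all genes 109 were called, against 13 with DESeq2, 35 with the doubled minimum, 38 with stricter gates, 42 and 57 within V3.0 and V3.1, and 67 with at least 500 genes per cell. Between border macrophages and microglia, 4 members were called, 2 with DESeq2, 2 with no replicate block, 2 with library size alone, 0 with the doubled minimum, and 0 to 5 when each mouse was left out. All-gene calls there were 994, against 805 with DESeq2 and 1214 with library size alone. The stricter gate left 2 border macrophages and was not run. Between neutrophils and microglia, 7 members were called, 4 with at least 500 genes per cell, and 5 to 6 when each mouse was left out, and Hspa1b moved from 0.00 to -1.24 with library size alone. All-gene calls there were 6774, or 57.0% of the genes tested, against 5571 with DESeq2 and 9531 with library size alone. In Hspa1a-positive against Hspa1a-negative microglia, 2 members were called, 0 with DESeq2, 1 with no filter on low counts, 1 without the V3.0 library of mouse 3, 4 without drawing cells down, 0 with at least 2 UMIs of Hspa1a, and 0 to 2 when each mouse was left out. Over all genes 10 were called there, against 2 with DESeq2, 18 with no replicate block, 39 without drawing down, 21 with at least 2 UMIs, and 1 to 11 when each mouse was left out. Between kits 0 members were called under each alternative, mouse as a replicate block included, while all-gene calls ranged from 145 to 541 around 369. With at least 500 genes per cell, the kit difference in the share of cells became 0.311 points for Bag3 and 4.08 for Hspa8, from -0.112 and -0.830. The causes were not tested. The DNC-INHIB group of 1 mouse, 60 border macrophages and 13 Hspa1a-positive cells in mouse 1 limit what these data can show.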

Other observations

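Apart from the members and the lists, 5 genes were called in Hspa1a-positive against Hspa1a-negative microglia, and they are named here after their values were seen. All 5 were higher. The chemokine gene Ccl4 had 3038, 15.4 and 238 CPM in Hspa1a-positive cells of mice 1 to 3, against 11.2, 12.6 and 12.8 CPM in negative cells. Ccl3, another chemokine gene, had 577, 7.69 and 106 CPM against 12.2, 9.08 and 8.03 CPM. Both stood apart in mice 1 and 3 and not in mouse 2, which had the most Hspa1a-positive cells, and the 79 Ccl4 UMIs of mouse 1 came from its 13 positive cells. Ccl12 had 192, 227 and 712 CPM against 114, 96.5 and 94.4 CPM. The interferon-responsive genes Ifitm3 (76.9, 92.3 and 181 CPM against 29.0, 37.1 and 31.9) and Ifi27l2a (231, 102 and 162 CPM against 41.2, 45.5 and 43.2) were higher in positive cells of all 3 mice. In the 13 positive cells of mouse 1, the values rest on 5 UMIs of Ccl12, 2 of Ifitm3 and 6 of Ifi27l2a. DESeq2 called 2 genes of all in this comparison, so not all 5 calls held with it. The difference between mice was not tested for any of these genes.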
